A study of Mus musculus with 24 samples.

Results

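The ligands HGF and MSP were followed with their receptors and the proteins that activate them or block their activation, as 10 genes named by symbol of the 49568 genes in the tables: Hgf, Met, Mst1, Mst1r, Hgfac, St14, Spint1, Spint2, Plau and Plaur. All 10 were found in both tables, and all 10 passed the filter on low values (a value of at least 1 in 3 samples of the healthy liver, or in 2 samples of the transwell experiment). The question was which liver cells make, activate and receive these ligands. For the healthy liver, 4 fractions were sorted from each of 3 littermates aged 12 weeks, called A, E and F. These mice were heterozygous for a Pdgfra reporter (B6.129S4-Pdgfratm11(EGFP)Sor/J, C57BL/6), so all 4 fractions carried it. Ductal cells (DCs) were sorted as EpCAM+, and the 3 stromal fractions by both PDGFRα and SCA1 (PDGFRα+SCA1+), by PDGFRα without SCA1 (PDGFRα+SCA1-) or by SCA1 without PDGFRα (PDGFRα-SCA1+), all of them negative for CD45, CD11b and CD31. For the transwell experiment, wild-type C57BL/6 mice of 8 to 12 weeks gave DCs and SCA1+Msc cells, which were sorted as SCA1+ without a PDGFRα gate. They were collected at day 0 (t0) or at day 15, with 2 samples in each of 6 groups. In the study's methods SCA1+Msc cells were first expanded on the plates, before DCs were added for 15 days. Co-cultured SCA1+Msc cells were thus in culture for longer than the DCs. DCs grew into organoids on inserts in Matrigel, either alone in expansion medium (EM, to which HGF, EGF, FGF10 and RSPO1 were added) or above SCA1+Msc cells in mesenchymal medium (MM, with WNT3A and serum and none of those factors), and SCA1+Msc cells were also kept alone in MM. Organoids without SCA1+Msc cells in MM were not among the samples, so medium and co-culture cannot be told apart between the organoid groups.

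HGF is secreted by mesenchymal cells as an inactive precursor and acts on the receptor tyrosine kinase MET of epithelial cells, where it drives growth, movement and branching. In the liver it is a main mitogen of hepatocytes and a common component of organoid media. MSP (macrophage-stimulating protein, the product of Mst1, which is unrelated to the Hippo kinase also called MST1) is a relative of HGF that hepatocytes release and that binds RON (Mst1r). Both precursors must be cut by serine proteases of the trypsin family before they signal, among them the HGF activator (Hgfac) and the membrane protease matriptase (St14), which the membrane inhibitors HAI-1 (Spint1) and HAI-2 (Spint2) hold in check. The urokinase plasminogen activator (Plau) and its receptor (Plaur) belong to the same group of surface proteolysis genes.

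The libraries held 19.6 M to 25.7 M reads on genes in the healthy liver against 19.3 M to 28.1 M for transwell samples. The defining markers followed the sorts. Epcam reached 2966 to 3091 in DCs of the healthy liver and at most 148 elsewhere, Pdgfra 52.9 to 103 in both PDGFRα+ fractions and at most 0.0828 elsewhere. PDGFRα-SCA1+ cells expressed all 8 endothelial genes looked at, with 726 to 929 of Pecam1, which encodes the CD31 they were gated against, and their summed ductal markers ran from 80.4 (mouse A) to 3857 (mouse E). SCA1+Msc cells at t0 held RNA of hepatocyte and ductal genes: the 10 hepatocyte genes looked at summed to 20101 and 24915 TPM, against 106 to 484 in the 4 cultured stromal libraries, and 8 ductal genes to 1240.3 and 2642 TPM. The 5 erythroid genes looked at summed to 8678 and 10762 TPM in SCA1+Msc cells at t0. They summed to 5206 and 5314 TPM in DCs at t0 and to at most 1.81 TPM in cultured libraries. The part of such RNA in the differences from t0 was not tested. Cultured SCA1+Msc cells still had 123.8 to 219 TPM of endothelial genes. The Y-linked gene Ddx3y was at 0 in the 6 ductal libraries of the transwell experiment and at 41.9 to 87.6 TPM in the 6 stromal ones, so that the sex of the donor mice and the cell type cannot be told apart there. In the healthy liver Ddx3y was at 52.4 to 159 in mice A and E and at 0 to 0.0615 in mouse F. Mouse F thus differed in sex from mice A and E, in every fraction. In such bulk samples fewer cells of a type and less RNA per cell cannot be told apart either.

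Hgf (ENSMUSG00000028864.7, chr5:16553495-16620152 on GRCm38) was made by the PDGFRα+ stroma of the healthy liver and hardly by DCs. In PDGFRα+SCA1+ cells its deposited value was 36.7, 50.2 and 42.5 in mice A, E and F (43.1 ± 6.76, SD, n = 3), and in PDGFRα+SCA1- cells 96.0, 140.1 and 45.6 (93.9 ± 47.3, n = 3). In DCs it was 0, 0.614 and 0.0440, that is 0, 32 and 2 reads. The 6 PDGFRα+ libraries lay above all the others, whereas PDGFRα-SCA1+ cells, with 4.69, 1.02 and 4.07 (3.26 ± 1.97, n = 3), stood between them and DCs. The log2 difference from DCs, here and below on the scale of log2(value + 1), was 5.20 ± 0.55 (SE, limma, adjusted p = 2.2e-05) for PDGFRα+SCA1+ cells and 6.18 ± 0.55 (adjusted p = 5.6e-06) for PDGFRα+SCA1- cells. For PDGFRα-SCA1+ cells it was 1.70 ± 0.55 (adjusted p = 0.042), a call that was lost with the mouse as a block (adjusted p = 0.066) and when any of 8 libraries was left out (adjusted p = 0.059 to 0.14). They were mice A, E or F of DCs or of PDGFRα+SCA1+ cells, and mice A or F of PDGFRα-SCA1+ cells. In all, 10 of 20 alternative settings lost this Hgf call.

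Mst1 (ENSMUSG00000032591.15, chr9:108080436-108085003) was low and patchy in every fraction. It was at 0, 3.17 and 1.58 in DCs of mice A, E and F, at 4.74, 0.161 and 0 in PDGFRα+SCA1+ cells, at 0 in all PDGFRα+SCA1- libraries and at 0, 0 and 1.43 in PDGFRα-SCA1+ cells. The groups overlapped, no comparison was called (adjusted p = 0.25 to 0.86), and 3 reads in a library correspond to 0.19 to 0.24, the floor under which a value was not told apart from absence. Mst1 overlaps the gene Rnf123 on the opposite strand (3.46 to 14.9 in these libraries), and the kit does not keep strand, so reads of the shared stretch cannot be told apart.

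The receptors of the 2 ligands lay in different cells. Met (ENSMUSG00000009376.15, chr6:17463800-17573980) was at 42.8, 46.8 and 62.2 in DCs (50.6 ± 10.2, n = 3), and no PDGFRα+ library had more than 3 reads of it. PDGFRα-SCA1+ cells had 2.51, 1.10 and 3.01 (2.21 ± 0.992, n = 3), which is above every PDGFRα+ library and below every DC library. Against DCs, Met was lower by limma in PDGFRα+SCA1+ (log2 difference -5.64 ± 0.48, adjusted p = 3.8e-06), PDGFRα+SCA1- (-5.65 ± 0.48, adjusted p = 3.7e-06) and PDGFRα-SCA1+ cells (-4.04 ± 0.48, adjusted p = 5.6e-05).

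Mst1r (ENSMUSG00000032584.12, chr9:107906873-107920383) was highest in the PDGFRα+ stroma. It was at 12.2, 6.88 and 15.1 in PDGFRα+SCA1+ cells (11.4 ± 4.15, n = 3) and at 19.2, 4.65 and 42.6 in PDGFRα+SCA1- cells (22.1 ± 19.1, n = 3). DCs had 0, 2.65 and 0, and PDGFRα-SCA1+ cells had no read in any mouse. All 6 PDGFRα+ libraries thus exceeded all 6 others (169 to 1350 reads against 0 to 83). Mst1r was higher than in DCs in PDGFRα+SCA1+ (log2 difference 2.95 ± 0.78, limma, adjusted p = 0.015) and PDGFRα+SCA1- cells (3.47 ± 0.78, adjusted p = 0.0053). The PDGFRα+SCA1+ call was lost without DCs of mouse A (adjusted p = 0.071) or F (0.070) or without PDGFRα+SCA1+ cells of mouse F (0.056). The means were at least 125-fold (PDGFRα+SCA1+) and 243-fold (PDGFRα+SCA1-) higher than in PDGFRα-SCA1+ cells, taken against a floor of 3 reads per library.

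**Figure D1:**
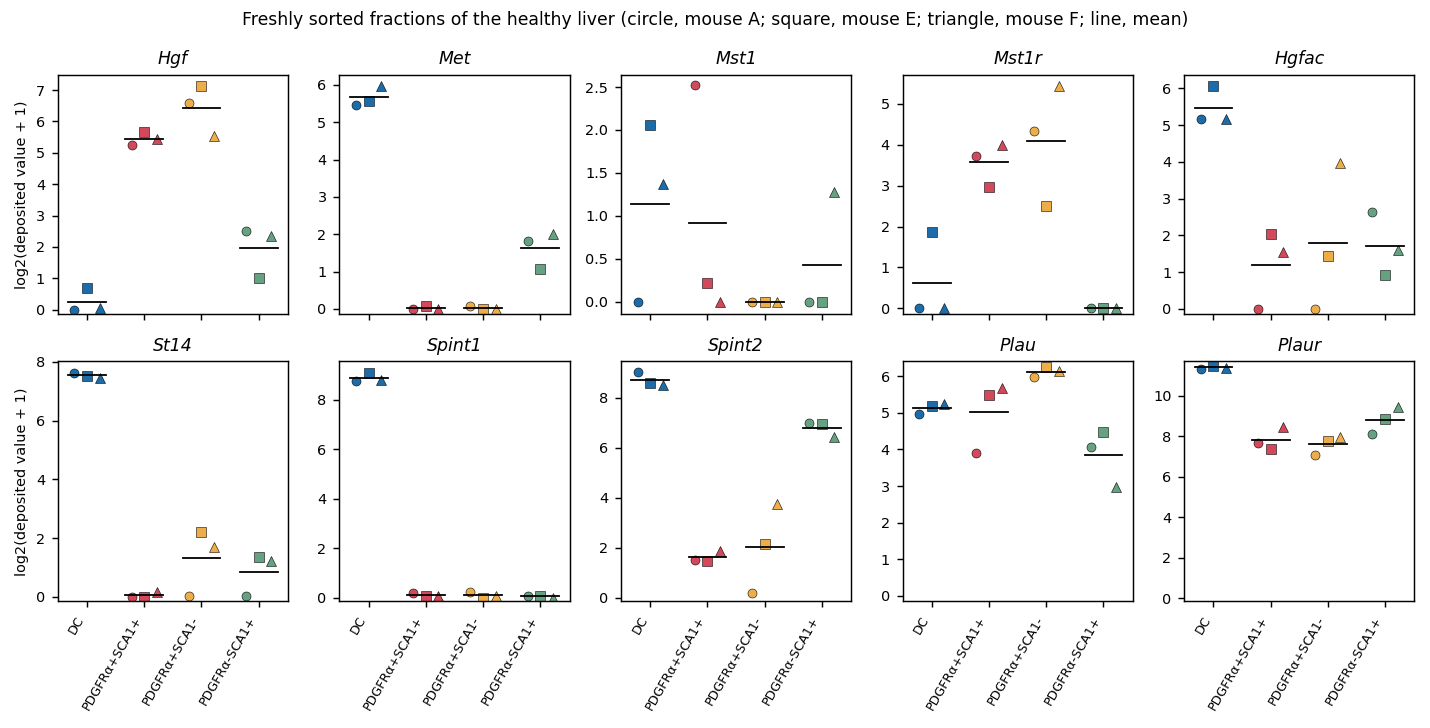
Values of the 10 genes in the 12 libraries of the healthy liver, as log2(deposited value + 1) on the vertical axes, by sorted fraction on the horizontal axes; each symbol is a mouse and each line the mean of 3. Hgf and Mst1r are highest in the PDGFRα+ fractions and Met, Hgfac, St14, Spint1, Spint2 and Plaur in DCs, while Plau is present in all 4 fractions.

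Of the proteases and inhibitors of ligand activation, Hgfac, St14, Spint1 and Spint2 were highest in DCs. Hgfac (ENSMUSG00000029102.9, chr5:35041509-35048461), the circulating HGF activator made by the liver, was at 35.2, 66.2 and 34.5 in DCs (45.3 ± 18.1, n = 3). The stromal libraries had 0 to 14.6, the highest being PDGFRα+SCA1- cells of mouse F, and none overlapped with DCs. The log2 differences from DCs were -4.28 ± 0.94 in PDGFRα+SCA1+ (limma, adjusted p = 0.0051), -3.66 ± 0.94 in PDGFRα+SCA1- (adjusted p = 0.011) and -3.74 ± 0.94 in PDGFRα-SCA1+ cells (adjusted p = 0.011). The last 2 calls were lost without DCs of mouse E (adjusted p = 0.050 and 0.052) and with a pseudocount of 0.1 (adjusted p = 0.054 and 0.11). The 10 hepatocyte genes summed to 6444 to 7358 in DCs, 989 to 2675 in PDGFRα+ cells and 2379 to 7035 in PDGFRα-SCA1+ cells. The part of hepatocyte RNA in the Hgfac values was not tested.

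St14 (ENSMUSG00000031995.9, chr9:31089402-31131853, minus strand) was at 197, 183 and 175 in DCs (185 ± 10.8, n = 3) and at 0 to 3.68 in the 9 stromal libraries. Its inhibitor Spint1 (ENSMUSG00000027315.13, chr2:119237362-119249527) was at 434, 546 and 441 in DCs (473 ± 62.9, n = 3), against 0 to 3 reads in any stromal library, so that it passed the filter through DCs alone. Protease and inhibitor were thus highest in the same fraction. In the rest Spint1 was at or under the floor of 3 reads, whereas St14 reached 203 and 128 reads in PDGFRα+SCA1- cells and 77 and 73 reads in PDGFRα-SCA1+ cells of mice E and F. Against DCs the log2 differences of St14 were -7.48 to -6.22 (SE 0.63, limma, adjusted p = 3.9e-06 to 1.6e-05). For Spint1 a difference from DCs was fixed by the filter, so its values stand without a test.

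Spint2 (ENSMUSG00000074227.12, chr7:29256323-29281912, minus strand), the broader inhibitor, was not confined to the DC fraction. It was at 513, 388 and 364 in DCs (422 ± 80.2, n = 3) and at 125, 123 and 84.0 in PDGFRα-SCA1+ cells (111 ± 23.1, n = 3). The PDGFRα+ libraries had 0.150 to 12.3. Relative to DCs it was lower in PDGFRα+SCA1+ (log2 difference -7.09 ± 0.67, limma, adjusted p = 8.9e-06) and PDGFRα+SCA1- cells (-6.68 ± 0.67, adjusted p = 1.4e-05), and was not called in PDGFRα-SCA1+ cells (-1.93 ± 0.67, adjusted p = 0.057), although the 3 libraries lay below all DC libraries. It was called without PDGFRα+SCA1- cells of mouse A (adjusted p = 0.0035) or F (0.0090). The summed ductal markers of PDGFRα-SCA1+ cells ran from 80.4 (mouse A) to 3857 (mouse E), and their part in the Spint2 values was not tested.

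Plau (ENSMUSG00000021822.3, chr14:20836660-20843385) was expressed in all 4 fractions and called against DCs in none. It was at 30.5, 35.6 and 36.8 in DCs, 14.0, 43.7 and 49.8 in PDGFRα+SCA1+, 61.7, 74.7 and 70.1 in PDGFRα+SCA1- and 15.7, 21.4 and 6.90 in PDGFRα-SCA1+ cells. Without PDGFRα+SCA1+ cells of mouse A, the library with the 14.0, Plau was called lower in PDGFRα-SCA1+ cells than in DCs (adjusted p = 0.033) and than in PDGFRα+SCA1+ cells (0.021). Plaur (ENSMUSG00000046223.10, chr7:24462484-24475968) was the most abundant of the 10 transcripts per length in every fraction. DCs had 2592, 2848 and 2680.3 (2707 ± 130.1, n = 3), and the stromal libraries 134 to 699. The log2 differences of Plaur from DCs were -3.56 ± 0.36 (PDGFRα+SCA1+, limma, adjusted p = 1.6e-05), -3.79 ± 0.36 (PDGFRα+SCA1-, adjusted p = 9.5e-06) and -2.59 ± 0.36 (PDGFRα-SCA1+, adjusted p = 0.00021).

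Counted over the 10 genes, 8 were called in PDGFRα+SCA1+ cells against DCs (2 higher, 6 lower), 8 in PDGFRα+SCA1- cells (2 higher, 6 lower) and 6 in PDGFRα-SCA1+ cells (1 higher, 5 lower). Of the 17028 genes tested, 23.8%, 28.8% and 22.8% were called in these comparisons, which share the DC libraries. Each count includes Spint1, which passed the filter through DCs alone. The median log2 differences of the 10 were -3.92, -3.73 and -2.26, beside -0.28, -0.47 and -0.04 over all genes.

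Of the 3 stromal fractions, the PDGFRα+ fractions were not told apart by any member. None was called between PDGFRα+SCA1+ and PDGFRα+SCA1- cells, where 0.587% of all genes were called by limma, and 1 member had an unadjusted p under 0.05. That was Plau, lower in PDGFRα+SCA1+ cells in all libraries (log2 difference -1.10 ± 0.49, adjusted p = 0.41). The Hgf difference was -0.98 ± 0.55 (adjusted p = 0.54), with overlapping values.

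PDGFRα-SCA1+ cells differed from PDGFRα+SCA1+ cells in 4 members, where 18.8% of all genes were called, and from PDGFRα+SCA1- cells in 6, where 21.5% were called. Both comparisons called Hgf lower (log2 differences -3.50 ± 0.55, limma, adjusted p = 0.00071, and -4.47 ± 0.55, adjusted p = 0.00011), Mst1r lower (-3.57 ± 0.78, adjusted p = 0.0064, and -4.09 ± 0.78, adjusted p = 0.0024) and Spint2 higher (5.16 ± 0.67, adjusted p = 0.00017, and 4.75 ± 0.67, adjusted p = 0.00029). Met was called higher in both (1.60 ± 0.48, adjusted p = 0.034 and 0.031) and was lost in both with the mouse as a block (adjusted p = 0.057 and 0.052). Against PDGFRα+SCA1+ cells, the Met call was also lost without any 1 library of DCs or of PDGFRα+SCA1+ cells or without mouse A or F of PDGFRα-SCA1+ cells (adjusted p = 0.050 to 0.099). In all, 11 of 20 alternative settings lost it. Against PDGFRα+SCA1- cells, it was lost without DCs of mouse E (adjusted p = 0.050) or without mouse A (0.083) or F (0.092) of PDGFRα-SCA1+ cells. There the Met call was lost in 7 of 20 alternative settings in all (limma, adjusted p up to 0.31). Over these 20 the log2 difference ran from 0.90 to 4.21. Plau was lower (-2.28 ± 0.49, adjusted p = 0.0054) and Plaur higher (1.20 ± 0.36, adjusted p = 0.032) than in PDGFRα+SCA1- cells. The Plaur call was lost without PDGFRα+SCA1- cells of mouse A (adjusted p = 0.10) or PDGFRα-SCA1+ cells of mouse E (0.079) or F (0.12). In all, 6 of 20 alternative settings lost it. Against PDGFRα+SCA1+ cells Plaur was not called (0.97 ± 0.36, adjusted p = 0.083), but it was with the mouse as a block (adjusted p = 0.035), without PDGFRα+SCA1+ cells of mouse F (0.038) and without PDGFRα-SCA1+ cells of mouse A (0.026). The 10 macrophage and other leukocyte genes looked at summed to 474 to 3819 in PDGFRα-SCA1+ cells. They summed to 168 to 322 in PDGFRα+SCA1+ cells, 109 to 144 in PDGFRα+SCA1- cells and 275 to 629 in DCs. Their part in the Plaur values of the healthy liver was not tested.

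The promoters of the 10 genes were searched for short sequence motifs. RefSeq promoter windows on GRCm38.p6 (250 bases before to 50 after the start site) were found for 8 of the 10 genes, with 2 windows each for Hgf and Mst1r, and none for St14 and Plau. Of 15 motifs searched on both strands, the AP-1 letters TGANTCA were held by 1 window each of Met, Spint1 and Plaur and by no other window of the 10, and by 7.81% of all 32851 windows. These stretches are shown because Fosl1, which encodes a subunit of AP-1, was among the response genes followed below. The 3 genes were highest in DCs, as were Hgfac and Spint2, whose windows held no match. The match is in capitals, all 3 genes lie on the plus strand, and the match begins 54, 6 and 69 bases before the RefSeq start site, which for Met lies inside the gene as GENCODE places it.
Met, chr6:17463892-17463920: tgttgcccggcTGAGTCAcgggccgggca
Spint1, chr2:119237343-119237371: gccccgcgctcTGACTCAgtttcaccaga
Plaur, chr7:24462403-24462431: acccctggagcTGACTCActctttagcaa
The other motifs in windows of the 10 genes were the ETS core GGAAG (8 windows, 71.4% of all windows), the PEA3 form AGGAAG that contains it (5 windows, 35.4%), the GC box GGGCGG (5 windows, 35.7%), a short HNF1 form GTTAAT (3 windows, 7.1%) and the E-box CAGGTG (3 windows, 20.2%). No window of the 10 held the letters searched for GRHL proteins (AACCNGTT, in 2.09% of all windows), for C/EBP proteins (TTGCGCAA, in 0.183%), for the CRE element (TGACGTCA, in 1.79%), for TEAD proteins (GGAATG, in 14.7%), for HNF4 proteins (CAAAGTCCA, in 0.475%) or for the TATA element (TATAAA, in 13.6%), nor the longer motifs of HNF1, NF-kB and SRF (in 0.00913%, 0.155% and 0.0639%). A match describes these letters only, and the motif shown was chosen after all were searched.

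Genes around this axis were followed in 6 lists. Of all genes tested between PDGFRα+SCA1+ cells and DCs, 23.8% were called (1678 higher, 2376 lower), against which the counts of each list stand as a description. Among other trypsin-like proteases and their inhibitors, 13 were tested, and 5 were higher and 6 lower in PDGFRα+SCA1+ cells than in DCs (median log2 difference -0.12). Lower were Prss8, the prostasin that works with matriptase (275 ± 60.7 in DCs and 0.0288 ± 0.0498 in PDGFRα+SCA1+ cells, log2 difference -8.04, limma, adjusted p = 3.6e-06), Habp2 (-7.29, adjusted p = 0.00066) and Hpn, the hepsin that can cut pro-HGF (-6.50, adjusted p = 0.00030). Higher were the secreted protease Htra1 (7.53, adjusted p = 1.2e-07), the inhibitor Tfpi2 (6.26, adjusted p = 4.5e-07) and Serping1, the C1 inhibitor (4.43, adjusted p = 6.6e-08). Prss8 and Hpn thus lay with St14 in DCs.

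In the plasminogen activation list, which holds Plau and Plaur too, 4 of 15 were higher and 5 lower in PDGFRα+SCA1+ cells than in DCs (median -0.13). Among the higher were thrombomodulin (Thbd, log2 difference 5.98, limma, adjusted p = 0.00051) and the clearance receptor Lrp1 (4.55, adjusted p = 7.4e-07). Lower, next to Plaur, were the plasminogen-binding Anxa2 (-2.79, adjusted p = 1.5e-06) and Vtn (-2.48, adjusted p = 0.0062). The activator Plau was thus present in both cell types and its receptor higher in DCs.

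Of 18 co-receptors and partners of MET, 5 were higher and 7 lower in PDGFRα+SCA1+ cells (median 0.01). Cdh1, the E-cadherin of epithelia, fell from 1954 ± 191 in DCs to 0.243 ± 0.178 (log2 difference -10.62, limma, adjusted p = 2.8e-05), and Erbb3, which MET can activate, from 47.9 ± 9.93 to 0.197 ± 0.320. Nrp1, a co-receptor, and the glypican Gpc3 were higher in PDGFRα+SCA1+ cells (log2 differences 4.86 and 3.33, adjusted p = 3.4e-07 and 0.00010). Among 17 negative regulators of MET, 4 were higher and 4 lower (median -0.41), and Dcn, a matrix proteoglycan that binds MET, rose most, from 42.7 ± 17.0 in DCs to 24627 ± 1787 (9.21, adjusted p = 1.4e-08). Of 28 adaptors and effectors, 2 were higher and 3 lower (median -0.55), Src among the latter (111 ± 18.3 and 20.7 ± 2.27). Among 17 ERK feedback and response genes 4 were higher and 4 lower (median -0.35). Etv4 (8.55 ± 2.47 in DCs) was at 0 in all PDGFRα+SCA1+ libraries, while Fosl1 was at 2072 ± 178 in DCs and 1639.8 ± 309 in PDGFRα+SCA1+ cells.

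In the transwell experiment the separation of ligand and receptor was seen again at t0. The 2 samples of a group are called independent biological replicates in the study. Its methods take the DCs from 2 littermates and the stromal cells from 2 others, so that the groups of a cell type may share their mice, but the sources used here do not tie a sample number to a mouse. Hgf was at 36.4 and 25.9 TPM in SCA1+Msc cells at t0 (31.2 ± 7.39, n = 2) and at 0.210 and 0.200 TPM in DCs (13 and 9 reads), a log2 difference of 4.72 ± 0.27 (limma, adjusted p = 1.2e-06). Met was at 94.7 and 82.1 TPM in DCs and at 4.93 and 6.80 TPM in SCA1+Msc cells (log2 difference -3.71 ± 0.25, adjusted p = 2.8e-06). The stromal value of Met at t0 stood beside ductal markers of 1240.3 and 2642 TPM in those libraries, and their part in it was not tested.

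At t0 7 of 10 members were called in SCA1+Msc cells against DCs (2 higher, 5 lower), where 46.1% of the 18136 genes tested were called (median of members -1.37, of all genes -0.07). Mst1r was higher in SCA1+Msc cells (5.29 and 8.66 TPM against 2.11 and 1.37 TPM, log2 difference 1.52 ± 0.30, limma, adjusted p = 0.0026). St14, Spint1, Spint2 and Plaur were lower (log2 differences -5.08, -5.24, -4.03 and -3.18, adjusted p = 6.7e-06 to 0.00080). St14 and Spint1 differed widely between the 2 SCA1+Msc libraries, with 2.98 and 16.9 TPM of St14 and 3.05 and 38.4 TPM of Spint1, and library 2, the higher for both, also had the higher sum of ductal markers. Mst1, at 25.0 and 25.4 TPM in SCA1+Msc cells and 2.93 and 8.62 TPM in DCs, was not called (2.09 ± 0.80, adjusted p = 0.058). It was called without either EM organoid library (adjusted p = 0.0057 and 0.0056), which had 6.69 and 0 TPM of it and enter the common estimate of spread. Plau was called higher in SCA1+Msc cells only without t0 library 1 (adjusted p = 0.015).

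**Figure D2:**
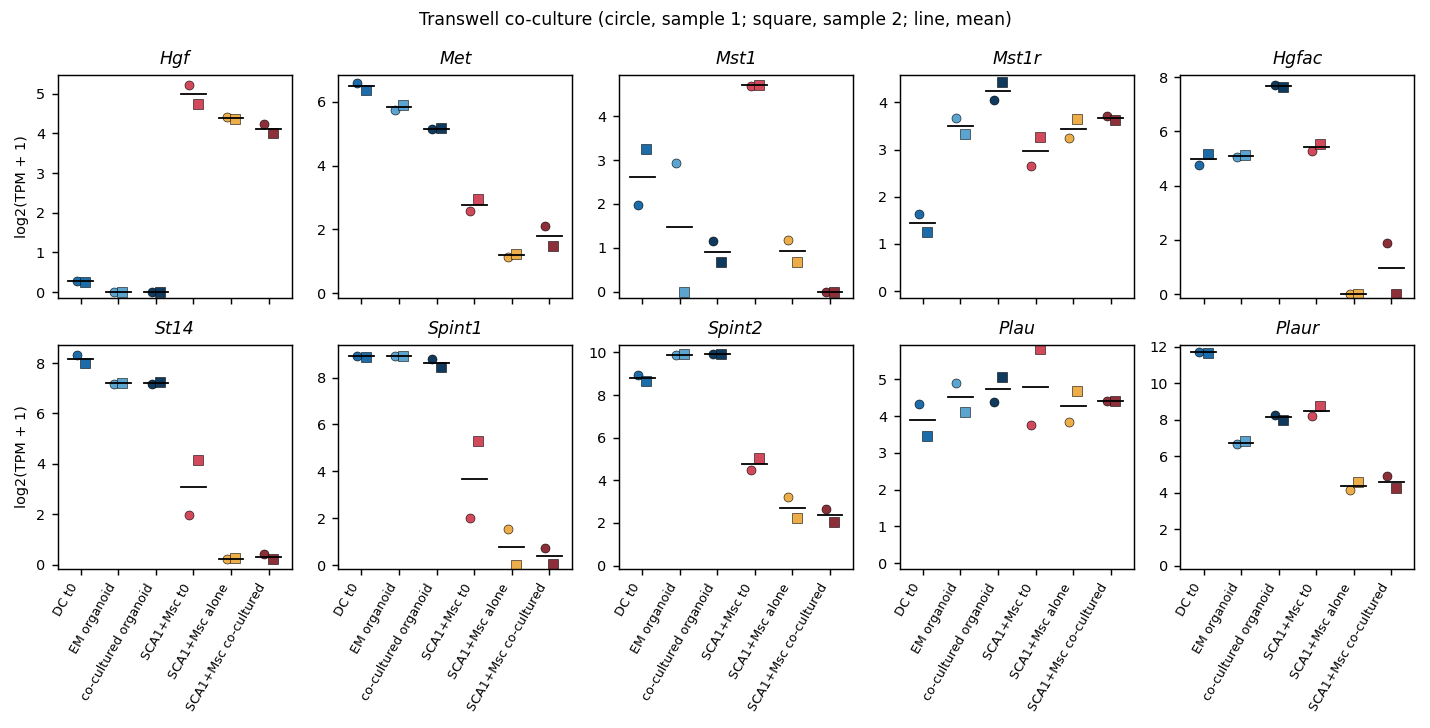
Values of the 10 genes in the 12 libraries of the transwell experiment, as log2(TPM + 1) on the vertical axes, by group on the horizontal axes; each symbol is a sample and each line the mean of 2. Hgf is confined to the 6 stromal libraries apart from 9 and 13 reads in DCs at t0, Hgfac peaks in co-cultured organoids and Plaur in DCs at t0.

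After 15 days in co-culture, stroma on the plate and organoids on the insert still held opposite sides of the HGF axis. Hgf was at 17.8 and 15.1 TPM in co-cultured SCA1+Msc cells (811 and 783 reads) and had no read in either co-cultured organoid library, which is at least 322-fold higher against a floor of 3 reads per library (limma, adjusted p = 1.8e-06). EM organoids had no read of Hgf either. Met was at 34.1 and 35.5 TPM in co-cultured organoids and at 3.27 and 1.79 TPM in the stroma below them (log2 difference -3.38 ± 0.25, adjusted p = 3.9e-06).

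Hgfac, St14, Spint1, Spint2 and Plaur lay on the organoid side, whereas Plau (means of 20.2 TPM in stroma and 26.3 TPM in organoids) was not called. Against co-cultured organoids, co-cultured SCA1+Msc cells had less Hgfac (log2 difference -6.73 ± 0.48, limma, adjusted p = 3.2e-06), St14 (-6.88 ± 0.53, adjusted p = 5.2e-06), Spint1 (-8.21 ± 0.86, adjusted p = 4.7e-05), Spint2 (-7.57 ± 0.32, adjusted p = 9.8e-08) and Plaur (-3.52 ± 0.25, adjusted p = 2.5e-06). In all, 7 of 10 members were called in this comparison (1 higher, 6 lower), where 36.7% of all genes were called (median of members -3.45, of all genes 0). Mst1r, which was higher in stroma than in DCs when freshly sorted, was at 12.0 and 11.3 TPM in stroma and 15.5 and 20.6 TPM in organoids here and was not called (-0.57 ± 0.30, adjusted p = 0.19).

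In DCs grown as organoids the receptors went in opposite directions. Mst1r was at 2.11 and 1.37 TPM in DCs at t0, 11.8 and 8.98 TPM in EM organoids and 15.5 and 20.6 TPM in co-cultured organoids. It was higher than at t0 in both (log2 differences 2.05 ± 0.30, limma, adjusted p = 0.00048, and 2.79 ± 0.30, adjusted p = 7.9e-05). Met went the other way, from 94.7 and 82.1 TPM to 53.0 and 58.4 TPM in EM organoids (-0.65 ± 0.25, adjusted p = 0.058, not called) and 34.1 and 35.5 TPM in co-cultured organoids (-1.32 ± 0.25, adjusted p = 0.0022). The 3 groups of libraries did not overlap for either receptor. Met was called in EM organoids when either SCA1+Msc t0 library or either co-cultured SCA1+Msc library was left out (adjusted p = 0.033 to 0.040).

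Plaur, the urokinase receptor, had the largest change of the 10 in DCs. It was at 3361 and 3252 TPM at t0, 100.5 and 113 TPM in EM organoids and 309.6 and 253 TPM in co-cultured organoids. The log2 differences from t0 were -4.94 ± 0.25 (limma, adjusted p = 7.4e-07) and -3.56 ± 0.25 (adjusted p = 4.6e-06). Fosl1 went with it, at 2184 ± 214 TPM at t0, 6.21 ± 1.34 TPM in EM organoids and 44.3 ± 12.6 TPM in co-cultured organoids (n = 2 each). The 10 macrophage and other leukocyte genes looked at summed to 1409 and 1971 TPM in DCs at t0. In EM organoids they summed to 36.7 and 48.7 TPM and in co-cultured organoids to 180 and 201 TPM. Their part in the Plaur differences between these groups was not tested. Plau, the urokinase ligand of Plaur, did not pass the test in either kind of organoid (19.2 and 10.1 TPM at t0, 29.1 and 16.4 TPM in EM organoids, 20.1 and 32.6 TPM in co-cultured organoids, adjusted p = 0.47 and 0.33).

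Of the inhibitors, Spint2 was higher in both kinds of organoid, with 927 and 987 TPM in EM and 980.2 and 961 TPM in co-culture against 495 and 406 TPM at t0. These differences (log2 1.09 ± 0.32, limma, adjusted p = 0.020, and 1.11 ± 0.32, adjusted p = 0.019) were lost without DC library 2 (adjusted p = 0.11 in both) and without either organoid library of the comparison (adjusted p = 0.067 to 0.087). Spint1 was at 470.2 to 488 TPM in DCs and EM organoids and at 439.9 and 349 TPM in co-cultured organoids, and St14 went from 315 and 258 TPM to 143 to 151 TPM in all 4 organoid libraries. Neither was called (adjusted p = 0.18 to 1). St14 was called in EM organoids without either SCA1+Msc t0 library (adjusted p = 0.0012 and 0.0015) and in co-cultured organoids likewise (0.0014 and 0.0017). Hgfac, taken up below, was called in co-cultured organoids (2.71 ± 0.48, adjusted p = 0.0016), a call lost with a pseudocount of 0.1 (adjusted p = 0.099). Mst1, at 6.69 and 0 TPM in EM and 1.24 and 0.586 TPM in co-cultured organoids, was called in neither (adjusted p = 0.28 and 0.12), but it was lower in EM without EM library 1 (0.0075) and in co-culture without either EM library (0.017 and 0.016). Altogether 3 members were called in EM organoids (2 higher, 1 lower) and 5 in co-cultured organoids (3 higher, 2 lower), in comparisons that share the DC libraries and called 44.4% and 42.3% of all genes. The medians of the members were -0.12 and -0.28, of all genes 0.12 and 0. Without either SCA1+Msc t0 library, 5 members were called in EM organoids.

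Between co-cultured and EM organoids, 2 members were called, both higher in co-culture, where 12.9% of all genes were called (median of members 0.02, of all genes -0.13). Hgfac was at 209 and 199 TPM in co-culture (6373 and 5108 reads, 204 ± 7.19 TPM, n = 2) and at 32.0 and 34.4 TPM in EM (33.2 ± 1.71 TPM, n = 2), a ratio of the means of 6.13 and a log2 difference of 2.58 ± 0.48 (limma, adjusted p = 0.0074). Plaur was at 309.6 and 253 TPM against 100.5 and 113 TPM (ratio of the means 2.63, log2 difference 1.38 ± 0.25, adjusted p = 0.0055). The values of the 2 groups were far apart for both genes, yet the calls rested on few libraries. The Hgfac call was lost without EM library 1 (adjusted p = 0.052) or co-culture library 1 (0.056), and the Plaur call without co-culture library 1 (0.054), so that 1 member was called without the former and 0 without the latter. With a pseudocount of 0.1 the Hgfac call was lost as well (adjusted p = 0.22).

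The 10 hepatocyte genes summed to 197 and 399 TPM in co-cultured organoids, of which Alb was 12.6 to 18.0 TPM, while they summed to 1545 and 1666 TPM in EM organoids and 4544 and 5878 TPM in DCs at t0. Hepatocyte genes Cps1 and Tat were at 0 in both co-cultured organoid libraries. Of 6 mesothelial genes Msln reached 3878 to 4500.2 TPM in co-cultured organoids against 296 to 326 TPM in EM, while Upk1b, Wt1 and Lrrn4 were at 0 in both co-cultured libraries. The part of these cell types in the Hgfac difference was not tested. Met and Mst1r, the receptors, were not called between the organoid groups (-0.66 ± 0.25, adjusted p = 0.12, and 0.74 ± 0.30, adjusted p = 0.16), although neither overlapped. St14 and Spint2 differed by 0.01 ± 0.53 and 0.02 ± 0.32.

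**Figure D3:**
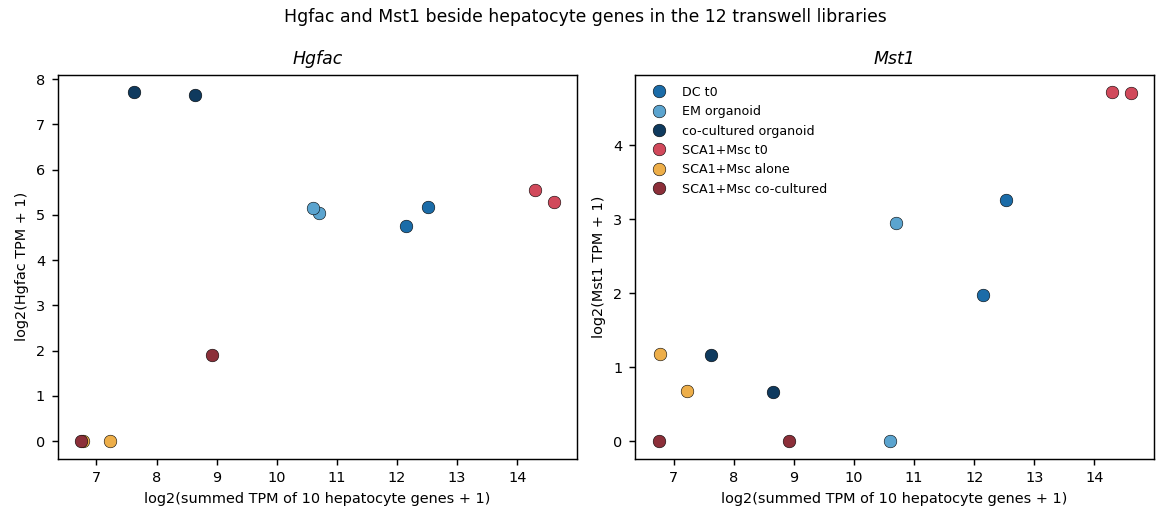
Hgfac (left) and Mst1 (right), as log2(TPM + 1) on the vertical axes, against the summed TPM of 10 hepatocyte genes on the horizontal axes as log2(sum + 1); each point is 1 of the 12 transwell libraries. Co-cultured organoids have the highest Hgfac (209 and 199 TPM) beside sums of 197 and 399 TPM, whereas the highest Mst1 (25.0 and 25.4 TPM) lies with the highest sums, in SCA1+Msc cells at t0.

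SCA1+Msc cells kept Hgf in culture at a lower level. It went from 36.4 and 25.9 TPM at t0 to 20.4 and 19.6 TPM alone (log2 difference -0.60 ± 0.27, limma, adjusted p = 0.10, not called) and 17.8 and 15.1 TPM in co-culture (-0.87 ± 0.27, adjusted p = 0.027). No cultured library reached the lowest t0 value. The co-culture call was lost in 5 of 20 alternative settings, among them without t0 library 1 and without either co-culture library. Over these 20 the log2 difference ran from -1.10 to -0.63.

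Other members fell far more, in both cultures. Hgfac fell from 38.1 and 45.5 TPM at t0 to no read in either library alone, at least 357-fold lower against a floor of 3 reads per library (limma, adjusted p = 2.3e-05), and to 2.73 and 0 TPM in co-culture (log2 difference -4.46 ± 0.48, adjusted p = 7.8e-05). Mst1 fell from 25.0 and 25.4 TPM to 1.27 and 0.600 TPM alone (-3.78 ± 0.80, adjusted p = 0.0039) and to no read in co-culture, at least 128-fold lower (adjusted p = 0.0012). Both genes are known for their expression in hepatocytes, and the 10 hepatocyte genes fell from 20101 and 24915 TPM to 106 to 484 TPM in the same libraries. The 1 cultured stromal library with Hgfac reads, co-culture library 1, had the 484 TPM. The part of hepatocyte RNA in these differences was not tested.

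The ductal genes behaved alike. St14 (log2 differences -2.83 and -2.75, SE 0.53, limma, adjusted p = 0.0020 and 0.0024), Spint1 (-2.90 and -3.25, SE 0.86, adjusted p = 0.021 and 0.013), Spint2 (-2.07 and -2.42, SE 0.32, adjusted p = 0.00062 and 0.00025) and Met (-1.58 and -0.98, SE 0.25, adjusted p = 0.00072 and 0.010) fell alone and in co-culture. Ductal markers fell from 1240.3 and 2642 TPM to 215 to 554 TPM in the same libraries, and their part in these differences was not tested. Without t0 library 2, which held most ductal RNA, the Spint1 difference of cells cultured alone was -1.26 (adjusted p = 0.091) and the Met difference in co-culture -0.78 (adjusted p = 0.051). The Spint1 call was also lost without library 2 of cells alone, and the Spint1 and Met calls in co-culture without co-culture library 2. Of 20 alternative settings, 3 lost the Spint1 call alone, 2 lost it in co-culture and 3 lost the Met call in co-culture. Plaur fell from 301 and 437 TPM to 16.9 and 23.1 TPM alone (-4.13 ± 0.25, adjusted p = 2.0e-06) and 29.4 and 18.6 TPM in co-culture (-3.90 ± 0.25, adjusted p = 3.1e-06). Fosl1 fell beside it, from 1068 ± 48.8 TPM to 12.2 ± 6.97 and 27.3 ± 8.94 TPM. The 10 leukocyte genes summed to 753 and 857 TPM at t0, 388 and 618 TPM alone and 286 and 300 TPM in co-culture. Their part in the Plaur falls was not tested. Mst1r and Plau were not called in either culture (adjusted p = 0.093 to 0.68). Without t0 library 2 Mst1r was called higher in co-culture (adjusted p = 0.036), and without t0 library 1 Plau was called lower in cells alone (0.038).

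In all, 7 members were called in SCA1+Msc cells alone and 8 in co-culture, all of them lower than at t0, in comparisons that share the t0 libraries and called 44.8% and 43.3% of all genes (medians of the members -2.45 and -2.59, of all genes 0.19 and 0.17). Without co-culture library 2, 5 were called in co-culture. Between co-cultured SCA1+Msc cells and those alone, no member was called by limma, where 0.127% of all genes were, and 1 had an unadjusted p under 0.05. That was Met, at 3.27 and 1.79 TPM against 1.21 and 1.34 TPM (0.60 ± 0.25, adjusted p = 0.68). Without co-culture library 2, which leaves 2.73 TPM against 0, Hgfac was called.

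The change from t0 to co-culture was then compared between stromal and ductal cells by the interaction of both in limma, where 28.3% of all genes were called. The stroma had been expanded before the DCs were added, so its time in culture was longer. Hgfac, Mst1r and Spint2 were called, and all 3 moved down in SCA1+Msc cells relative to DCs. The interaction was -7.18 ± 0.68 for Hgfac (adjusted p = 1.0e-04), which rose from 25.9 and 35.3 TPM to 209 and 199 TPM in DCs and fell in stroma. It was -2.09 ± 0.43 for Mst1r (adjusted p = 0.0063), which rose in DCs and was not called in stroma (0.70 ± 0.30), and -3.54 ± 0.45 for Spint2 (adjusted p = 0.00050). The falls of Plaur and Met in the 2 cell types were not told apart (interactions -0.34 ± 0.35, adjusted p = 0.51, and 0.34 ± 0.35, adjusted p = 0.52). Without SCA1+Msc t0 library 1, 6 members were called, the others being St14 (adjusted p = 0.00016), Spint1 (0.0019) and Plau (0.033), and without either EM organoid library Mst1 was called too (0.011 in both).

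**Figure D4:**
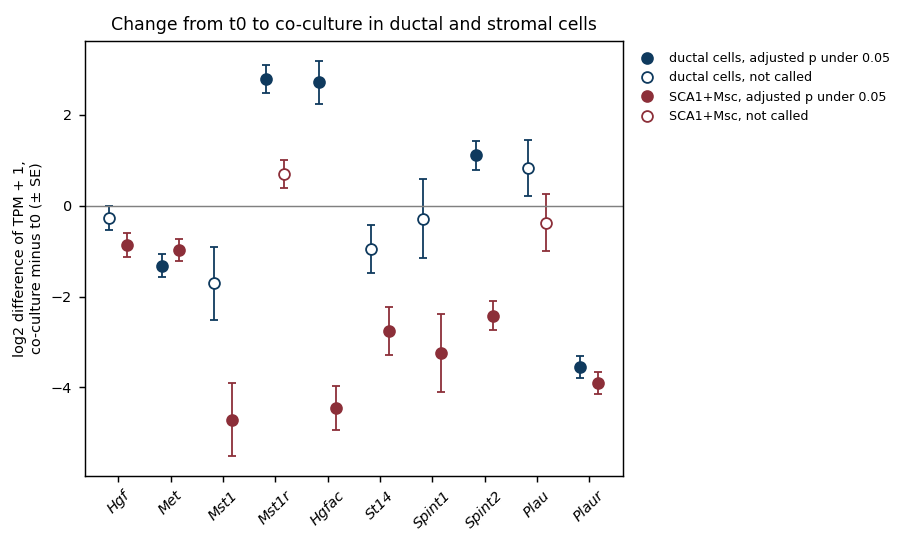
Log2 difference of TPM + 1 between co-culture and t0 (vertical axis, with SE) for the 10 genes (horizontal axis), in ductal cells (blue) and SCA1+Msc cells (red), with filled points for an adjusted p under 0.05. Plaur lies at -3.56 and -3.90 in the 2 cell types, whereas Hgfac lies at 2.71 in ductal cells and -4.46 in stroma.

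On culture the lists were counted beside all genes, of which 4917 were higher and 3128 lower in EM organoids against t0, 4210 and 3465 in co-cultured organoids, 4962 and 3165 in SCA1+Msc cells alone and 4724 and 3134 in co-culture. Of 17 ERK feedback and response genes, 1 was higher and 11 lower in EM organoids than in DCs at t0 (median -1.01), 0 and 9 in co-cultured organoids (-1.08), 0 and 11 in SCA1+Msc cells alone (-1.43) and 1 and 10 in co-culture (-1.15). All t0 cells were taken right after enzymatic digestion of the liver and sorting. The part of this handling in the falls from t0 was not tested. The largest falls in EM organoids were Fosl1 (log2 difference -8.25, limma, adjusted p = 4.1e-07), the ERK phosphatase Dusp5 (-4.04, adjusted p = 6.9e-06) and Ier3 (-3.55, adjusted p = 2.0e-08). Between co-cultured and EM organoids, where 12.9% of all genes were called (1040 higher, 1308 lower), 4 were higher and 2 lower (median -0.06), with Fosl1 (2.64, adjusted p = 0.0014), Phlda1 (1.43, adjusted p = 0.00025) and Dusp5 (1.09, adjusted p = 0.043) higher and Egr1 (-1.28, adjusted p = 0.00018) and Spred1 (-1.29, adjusted p = 0.037) lower. Ier3 alone of these genes was called between co-cultured and lone SCA1+Msc cells (454 ± 15.1 against 247 ± 15.2 TPM, limma, log2 difference 0.88, adjusted p = 0.011).

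Of 17 plasminogen activation genes, 6 were higher in co-cultured than in EM organoids, 0 were lower and 11 were not called (median 0.25). The tissue activator Plat was at 164 ± 34.7 TPM in co-cultured and 18.9 ± 0.532 TPM in EM organoids (log2 difference 3.03, limma, adjusted p = 2.8e-06) and Anxa2 at 4419 ± 445 and 782 ± 31.6 TPM (2.49, adjusted p = 7.2e-07). These stood beside the higher Plaur. Plasminogen itself (Plg) was at 2.65 ± 2.22 TPM in EM and 0.169 ± 0.238 TPM in co-cultured organoids. Against DCs at t0, 1 was higher and 11 lower in EM organoids (median -1.63), and 3 and 9 in co-cultured ones (-0.54).

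Of the other proteases, Tmprss4 and Prss22 were higher in both kinds of organoid than at t0. Of 15 tested in the protease and inhibitor list, 5 were higher and 6 lower in EM organoids than at t0 (median -0.02) and 5 and 8 in co-culture (-0.98). Tmprss4 was at 2.94 ± 2.06 TPM in DCs, 148 ± 8.66 TPM in EM organoids (log2 difference 5.35, limma, adjusted p = 1.1e-05) and 121 ± 1.27 TPM in co-cultured organoids (5.06, adjusted p = 1.6e-05), and Prss22 at 35.0 ± 12.4, 135 ± 23.9 and 493 ± 98.2 TPM. Between the organoids 3 were higher in co-culture and 2 lower (median 0), with the serpin Serpinb5 (186 ± 0.666 against 11.1 ± 7.98 TPM, adjusted p = 0.0011), Prss22 (adjusted p = 0.013) and Prss23 higher and Serping1 and Tfpi lower.

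On the receptor side, 6 of 18 co-receptors were higher and 5 lower in co-cultured than in EM organoids (median 0.14). The integrin Itga6 (log2 difference 2.87, limma, adjusted p = 0.0049), Gpc1 (1.66, adjusted p = 0.019) and the syndecan Sdc1 (1.60, adjusted p = 0.00072) were higher, and Gpc3 (-4.89, adjusted p = 3.2e-05), Nrp1 (-1.07, adjusted p = 0.0054) and Icam1 (-0.82, adjusted p = 0.028) lower. Of 28 adaptors 3 were higher and 3 lower (median -0.00), and of 17 negative regulators 2 and 4 (median -0.25), Timp3 falling from 184 ± 55.5 to 44.1 ± 1.02 TPM. In co-cultured stroma against co-cultured organoids, Dcn was at 20129 ± 1801 against 1.76 ± 2.19 TPM (13.10, adjusted p = 5.9e-08), the largest difference of that list, in which 7 of 17 were higher and 4 lower (median 0.01).

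The genes whose pattern was most like each member were sought by Pearson's r of log2(value + 1) over the 12 libraries of an experiment, which share cell types, so r is a description. In the healthy liver Hgf was most like Antxr1, Tgfbi and Dcn (r = 0.99, 0.99 and 0.98), Mst1r like Mrvi1, Gli2 and Arhgef39 (0.97, 0.95 and 0.95) and Met like Wwc1, Marveld2 and Bex4 (0.99 each). Mst1r thus followed genes of the PDGFRα+ fractions, Gli2 being at 10.8 and 24.0 in them and 0.02 in the others. Spint1 was most like Capsl, Ptgds and Cldn8 (0.9997 to 0.9998), St14 like Fermt1, Fdft1 and Cobl (0.98 each), Spint2 like Ctnna1, Ppp1r13b and Pacsin2 (0.97 to 0.98), Plaur like Eif5b, Nedd4l and Cxcl16 (0.98 to 0.99), and Hgfac like Scaf8, Fam234b and Ddit4l (0.96). Mst1 and Plau, the patchy and the shared gene, had lower best values (0.76 for Ttc3 and 0.90 for Hspb8).

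In the transwell experiment Hgf was most like Runx1t1, the Y-linked Ddx3y and Dchs1 (r = 0.998, 0.997 and 0.997), and Met like Spp1, Tec and Lcor (0.99 each). St14 was most like genes that included Traf4 and Prss8 (0.99 each), Prss8 being its partner protease. Mst1 was most like Papd7, Pglyrp2 and the hepatocyte enzyme G6pc (0.94, 0.93 and 0.93), whereas Hgfac was most like Cutal, Urah and the liver pyruvate kinase Pklr (0.98, 0.97 and 0.97), Pklr being at 51.4 TPM in co-cultured and 19.4 TPM in EM organoids and 7.79 TPM in DCs at t0. Mst1r was most like Dcxr, Dynll1 and Slc7a7 (0.96 to 0.97), Spint1 like Igsf5, Tmem184a and Ripk4 (0.99 each), Spint2 like Tmem125, Igsf9 and Ccdc64b (0.99 each) and Plaur like Tgif1, Usp43 and Arf6 (0.99 each). For Plau the best value was 0.78 (Oxnad1).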

How the data were processed

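RNA-seq of sorted or cultured mouse liver cells was used. Per the labels and methods, the authors made Smart-seq2 libraries from NexteraXT kits, sequenced them single-end, aligned reads to GRCm38 with STAR 2.5.0a and counted them on Ensembl exons with featureCounts. RPKM values are what the authors deposited of the transwell samples, and TPM was computed from them per sample. For the healthy liver they deposited values named TPM which the file does not hold as such (unit: other normalized values): their columns sum to 847270 to 1173511, since the total each value was divided by changes from row to row. Deposited values were used, and the members' ratio to TPM is 0.739 to 1.39. The 4 pooled mean columns were not used. The 10 members and all lists were chosen with earlier results of these data known.

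Values were taken as log2(value + 1), with a minimum of 1 in 3 (healthy liver) or 2 (transwell) samples, and fitted with limma 3.58.1 in R 4.3.3 over all 12 samples of an experiment, with 1 mean per group and an eBayes trend. Tests were two-sided with Benjamini-Hochberg adjustment over all genes tested and a threshold of 0.05. Groups came from the labels. The fractions of the healthy liver come from the same 3 mice, so the numbers pair them by design, although residuals of the same mouse correlated weakly (0.00395 to 0.0973 over the compared fractions). Reads per gene were recovered from whole multiples in low values (92.9% and 93.0% within 0.02 of a read, for up to 20 reads) with exon lengths of GENCODE M21, and a floor of 3 reads was used, which covers counting error alone, the reads carrying no molecular identifiers. The fit was tested on simulated data.

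Members are all given. List genes are named in the main comparisons as the 3 largest rises and falls past the threshold whose groups do not overlap, with counts elsewhere, and the most similar genes as the 3 with the highest r and a mean of at least 5, predicted genes left out. Beyond that rule, Fosl1 and Ddx3y were followed after their values were seen. The alternatives were other pseudocounts, filters, normalizations and fits, a block and leaving out each library. Dates had replaced 26 gene symbols of the transwell experiment, and none is named here. In the plasminogen list and among the genes most like St14, not every gene that these rules name is reported here.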

Additional observations from a re-analysis of the deposited data

Results flagged for a closer look

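The change from t0 to co-culture differed between stromal and ductal cells for 3 of the 10 genes, by the interaction term of limma, a share close to the 28.3% of all genes that were called. It was -7.18 (log2, stroma minus ductal) for Hgfac, which was higher in both co-cultured organoid libraries than in both DC libraries and lower in both co-cultured SCA1+Msc libraries than in both t0 libraries. It was -3.54 for Spint2, with the same directions in 2 of 2 libraries of each cell type, and -2.09 for Mst1r, which was higher in 2 of 2 co-cultured libraries than at t0 in both cell types. The SCA1+Msc t0 libraries, which enter all 3 values, held 20101 and 24915 TPM of the 10 hepatocyte genes and 1240.3 and 2642 TPM of the 8 ductal genes, and the part of either in these values was not tested. Groups of 2 or 3 samples were not searched for single samples that stand apart.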

How the results depend on the processing

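Of the 74 called member differences, recomputed as 1471 values under other pseudocounts, filters, normalizations and fits, with a replicate block and without each library, 1406 stayed called in the same direction, 65 were no longer called and 0 reversed. With the replicate block the members called in PDGFRα-SCA1+ cells went from 6 to 5 against DCs and against PDGFRα+SCA1- cells, and the number was 4 against PDGFRα+SCA1+ cells as before. For the transwell samples, whose numbers no source ties to a mouse (correlations of residuals -0.019 to 0.030), the block changed no count. Fitting only the compared groups called 5 members in EM organoids against DCs at t0 (3 over all groups) and 5 in co-cultured SCA1+Msc cells against t0 (8), and a pseudocount of 0.1 called 1 between the organoids (2). Without 1 library at a time, members called ranged from 3 to 7 in PDGFRα-SCA1+ cells against DCs (3 without DCs of mouse E), 2 to 5 in EM organoids against t0, 0 to 2 between the organoids, 5 to 8 in co-cultured SCA1+Msc cells against t0, 0 to 1 between co-cultured and lone SCA1+Msc cells and 3 to 6 in the interaction. A group left with 1 library was assumed to vary like the others. The number of all genes called moved with the setting too, so the member counts stand as a description. For PDGFRα+SCA1+ cells against DCs it was 4054 of 17028 in the main fit. It was 6921 of 14869 with only these groups fitted and 2668 of 16474 without DCs of mouse E. Without any 1 DC library of the healthy liver Spint1 was not tested, since it passed the filter through DCs alone. Each of its calls there thus has 17 values among the 1471, where other calls have 20. The causes of the other changes were not tested. The median of all genes shifted by -0.36 to 0.34 (log2) under quantile normalization, by -0.11 to 0.18 with TPM rebuilt for the healthy liver and by -0.16 to 0.097 on RPKM. Values near 3 reads, as of Mst1 in PDGFRα+SCA1+ cells of mouse E or of Met in PDGFRα+ cells, could not be told from absence at these depths.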
